A study of Mus musculus with 7 samples.

Results

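The SLAM family (signaling lymphocytic activation molecule) was examined in mouse CD8+ T cells exposed to small extracellular vesicles (sEVs) of leukemic or healthy spleens. The 8 genes were taken by symbol from the count table: the receptors *Slamf1*, *Slamf6*, *Slamf7*, *Cd48*, *Cd84*, and *Ly9*, and the adaptors *Sh2d1a* and *Sh2d2a*. All 8 were among the 55367 genes of the table and among the 12623 genes with enough counts to be tested. LME-sEVs were isolated from spleens with leukemia, of Eμ-*TCL1* mice, in which a *TCL1* transgene is driven in B cells and a disease like chronic lymphocytic leukemia follows. HCME-sEVs came from healthy spleens. The recipient cells were CD8+ T cells of Foxp3 YFP/cre mice, whose *Foxp3* locus carries YFP and Cre in every group, sorted by FACS and treated for 48 hours. Cells of 4 libraries received HCME-sEVs and cells of 3 libraries received LME-sEVs. These numbers follow the sample records and the column names of the count table. A legend of the study gives them the other way round. Exchanged labels would turn every direction given here, and whether labels were exchanged was not tested. The study reports that LME-sEVs raised *Bcl6* RNA and lowered *Gzmb* RNA and perforin protein. With the labels used here, the log2 fold change (edgeR) was 1.22 for *Bcl6* and -0.35 for *Gzmb*. Both directions are those that the study describes. Its *Bcl6* result comes from RNA-seq at 48 hours, the experiment read here, so that match is not a separate check of the labels. The log2 fold change of *Prf1*, the perforin gene, was 0.09 and did not pass the test.

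The sample records give 100 μg/mL of vesicles for both groups, whereas the methods describe the amount found in each kind of spleen, so the doses may have differed. The methods also describe plates coated with anti-CD3, with IL2 and CD28 antibody in the medium, for cultured CD8+ T cells. Mice were in general between 8 and 10 weeks of age, per the methods. The sources used here do not say whether the libraries of a group came from separate mice, so p-values measure the spread between these libraries only. RNA was read from 3′ ends with a unique molecular identifier (UMI) per molecule. Totals lay between 3689831 and 5030522 counts per library, and the members together held between 2087 and 3022 of them. CD8 T-cell markers were abundant in every library (8 genes, summed level between 2428 and 2958 CPM, counts per 1000000 after TMM normalization). *Cd4* had at most 3 counts and *Foxp3* and *Ncr1* at most 1 in any library. Levels are means ± SD over the 4 HCME-sEV and the 3 LME-sEV libraries, in that order. Because the samples are bulk, fewer cells of a type and less RNA per cell cannot be told apart.

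SLAM receptors are paired immunoglobulin-like surface proteins of blood cells. Most bind a copy of themselves on a neighboring cell, whereas CD48 is held in the membrane by a lipid anchor and binds CD244 and CD2. Tyrosine motifs in the tails of most of the receptors recruit SAP, the small SH2-domain protein encoded by *Sh2d1a*, which brings in the kinase FYN, and phosphatases such as SHP-1 compete for the same motifs. In CD8+ T cells SLAM receptors tune killing and cytokine output, SLAMF6 is a surface marker of stem-like cells that express TCF1, and loss of SAP causes X-linked lymphoproliferative disease. *Sh2d2a* encodes TSAd, an SH2-domain adaptor of LCK that resembles SAP in its SH2 domain but is not known for binding SLAM receptors.

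The 6 receptor genes lie in 1 cluster on chromosome 1 of GRCm38 (GENCODE vM21). From left to right these are *Ly9* (171588624 to 171607410, minus strand), *Slamf7* (171632403 to 171653035, minus), *Cd48* (171682009 to 171705258, plus), *Slamf1* (171767127 to 171801184, plus), *Cd84* (171839697 to 171890718, plus), and *Slamf6* (171917515 to 171953170, plus). *Sh2d1a* lies on chromosome X from 42502453 to 42529330 on the plus strand, and *Sh2d2a* on chromosome 3 from 87846755 to 87855722 on the plus strand. Exons of *Slamf7* overlap *Gm37787* on the other strand, which had 0 counts in all 7 libraries. The search for near-identical 3′ ends also matched *Slamf7* to *Gm37787*. It covered both strands, and *Gm37787* (171634879 to 171636022) lies within *Slamf7*, so the match may be the overlapping bases themselves. Exons of *Sh2d1a* overlap *Tenm1* on the other strand, which had between 1 and 5 counts per library. The other 6 members share no exon with another gene, and no other member has a near-identical 3′ end elsewhere.

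Of the 8 members, 5 have a promoter in the RefSeq table used (GRCm38.p6, 250 bases before to 50 after the start site): *Slamf6*, *Cd48*, *Slamf7*, *Slamf1*, and *Cd84*. Those of *Slamf6* and *Cd48* are shown, because these receptors had the highest and the lowest fold change of the family. The *Slamf6* window is chr1:171917212-171917511 and the *Cd48* window chr1:171681742-171682041, both on the plus strand, and the *Slamf6* gene of GENCODE begins 4 bases past the end of its window. Capitals mark matches to any of 7 motifs, which were chosen with the results known.
Slamf6: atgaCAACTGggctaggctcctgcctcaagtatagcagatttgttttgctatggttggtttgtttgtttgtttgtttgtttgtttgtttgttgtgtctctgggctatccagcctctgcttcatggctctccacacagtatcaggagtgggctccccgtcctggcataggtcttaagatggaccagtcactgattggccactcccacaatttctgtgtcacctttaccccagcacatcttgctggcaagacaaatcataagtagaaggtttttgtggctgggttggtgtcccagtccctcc
Cd48: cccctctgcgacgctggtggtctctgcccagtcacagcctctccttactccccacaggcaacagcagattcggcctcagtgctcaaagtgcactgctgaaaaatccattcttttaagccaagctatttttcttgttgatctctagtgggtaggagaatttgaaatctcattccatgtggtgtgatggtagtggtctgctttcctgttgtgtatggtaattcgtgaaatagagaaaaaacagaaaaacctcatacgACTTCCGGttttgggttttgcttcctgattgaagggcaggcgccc

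The motifs were searched on both strands. The MYB core CAACTG was found in 13.65% of all 32851 promoters of the table, the ETS motif CCGGAAGT in 3.89%, and the AP-1 motif TGANTCA in 7.81%. The STAT motif TTCNNNGAA was found in 8.3%, the NF-κB motif in 5.56%, the RUNX motif TGTGGTT in 5.27%, and the TCF/LEF motif CTTTGAA in 5.14%. *Slamf6* held the MYB core once, near the far end of its window, and *Cd48* held the ETS motif once, on the minus strand just past the start site. *Slamf7* held 1 AP-1 motif, *Cd84* held 1 AP-1 motif and 1 MYB core, and none of the 7 was found in the window of *Slamf1*. None of these matches overlapped another. The *Slamf6* window also holds 8 copies in a row of the unit gttt, a repeat that is as long in 4 of the 32851 windows when its 4 rotations are counted on the printed strand.

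Of the SLAM family, *Slamf6* was the member that passed the FDR correction: its RNA was higher in cells treated with LME-sEVs by a factor of 1.44. The other 7 members did not pass the correction, and the summed level of the 6 receptors overlapped between the groups, at 345 ± 22.5 (SD, n = 4) and 358 ± 24.6 CPM (SD, n = 3). An FDR under 0.05 (quasi-likelihood test of edgeR, adjusted by Benjamini-Hochberg across every tested gene, as everywhere here) was reached by 1 of 8 members (12.5%), against 8.96% of all tested genes. In the direction of *Slamf6*, 3.75% of all tested genes passed, and 5.21% passed in the other direction, in which no member did. The groups did not overlap in 1 of 8 members and in 20.3% of all tested genes. None of the 8 had a log2 fold change beyond 1, the cutoff of the study, which 1.28% of tested genes passed with the FDR. An unadjusted p under 0.05 in the same edgeR fit was found for 4 of 8 members (*Slamf6*, *Cd48*, *Sh2d1a*, and *Sh2d2a*) and for 22.7% of all tested genes.

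**Figure D1:**
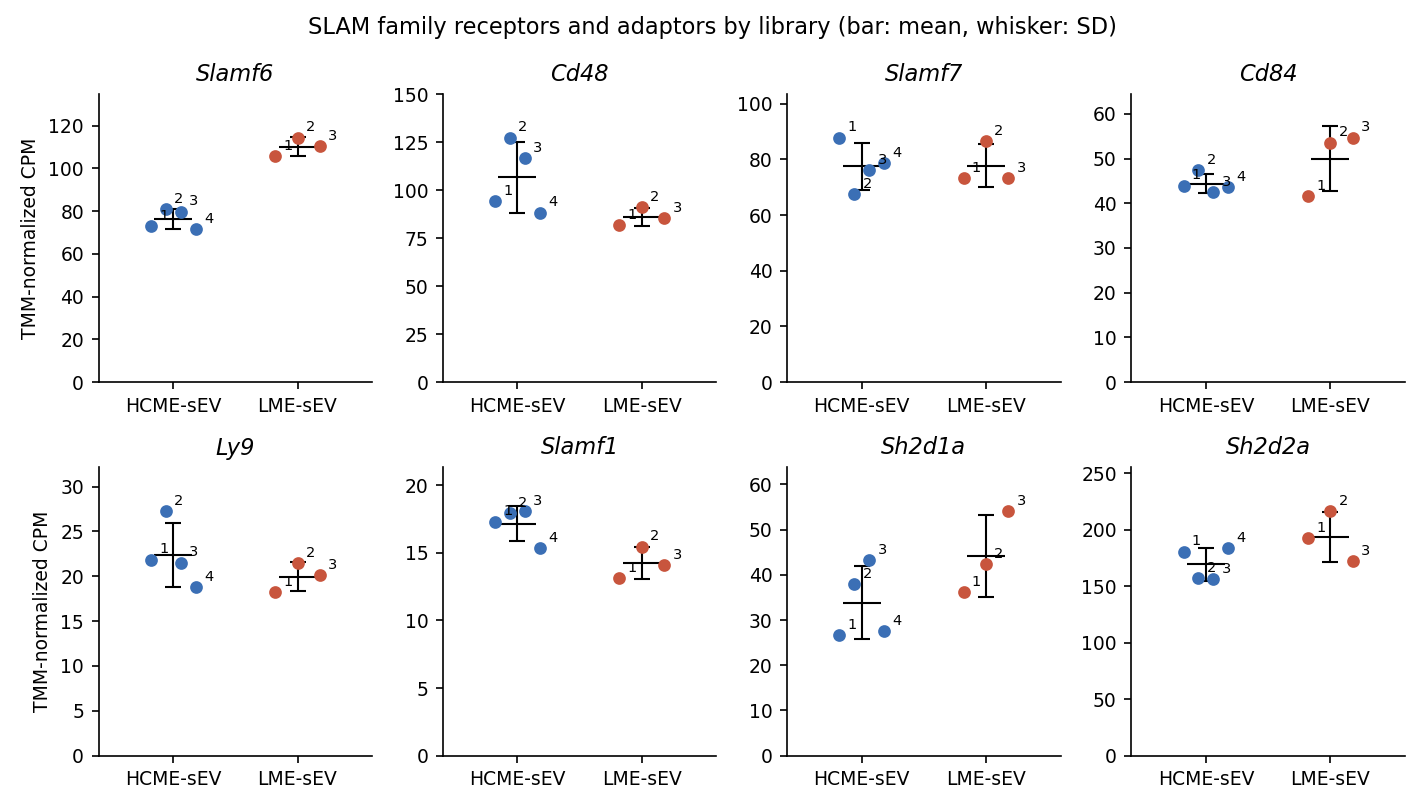
TMM-normalized CPM of the 8 members in each library (points, numbered by replicate), with the mean (bar) and SD (whisker) of the 4 HCME-sEV and 3 LME-sEV libraries. The groups of *Slamf6* are apart, with every LME-sEV library at 106 CPM or more and every HCME-sEV library at 81.1 CPM or less, whereas those of the other 7 members overlap.

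*Slamf6* encodes a receptor that binds itself and signals through SAP. HCME-sEV libraries 1 to 4 were at 73.0, 81.1, 79.8, and 71.7 CPM, and LME-sEV libraries 1 to 3 at 106, 114, and 111 CPM. The groups did not overlap, which held for 9.49% of all tested genes in this direction, and the gap between them was wider than the range of either group. The means were 76.4 ± 4.72 and 110 ± 4.41 CPM, and with LME-sEVs no other member had as small a spread relative to its mean. Its log2 fold change was 0.53 (standard error 0.085, 95% interval 0.35 to 0.71, FDR = 6.92e-04, edgeR), and the p-value ranked 76 among the 12623 tested genes. A two-sided exact permutation test gave p = 0.0286, the smallest that 4 against 3 libraries allow. Leaving out any 1 library, the log2 fold change stayed between 0.50 and 0.57, and 7 of 7 fits kept an FDR under 0.05.

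Several cell markers moved along with *Slamf6*. The summed CD8 T-cell markers lay between 2428 and 2558 CPM with HCME-sEVs and between 2618 and 2958 CPM with LME-sEVs, 1.09 times as high on average. Relative to *Cd8a*, *Slamf6* was between 19.1% and 22.0% with HCME-sEVs and between 26.4% and 26.5% with LME-sEVs. The groups thus stayed apart, as they did relative to the sum. The ratio of the means was 1.25 relative to *Cd8a* and 1.32 relative to the sum, against 1.44 for *Slamf6* in CPM. Of the 8 markers, *Cd3e* and *Cd3g* passed the test, both higher, where 3.75% of all tested genes passed in this direction. The call on *Cd3e* was lost without LME-sEV libraries 2 or 3, and that on *Cd3g* without HCME-sEV libraries 1 or 4 or LME-sEV libraries 2 or 3, and by DESeq2.

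SLAM receptors are also found on B cells, and the summed RNA of B-cell markers was higher with LME-sEVs, although that of *Pax5* was not. The 14 B-cell markers summed to between 263 and 304 CPM with HCME-sEVs and between 351 and 386 CPM with LME-sEVs, of which *Ighm* alone made up 241 ± 17.7 and 313 ± 13.4 CPM. Of the 8 B-cell markers tested, 3 were higher (*Ighm*, *Igkc*, and *Cd74*). Over all tested genes 3.75% were higher, the share to set beside each count of called markers in this paragraph. The call on *Ighm* was kept in 7 of 7 fits without a library, that on *Igkc* in 4 (lost without HCME-sEV library 2 or LME-sEV libraries 2 or 3). That on *Cd74* was kept in 2 (lost without HCME-sEV libraries 1, 2, or 4 or LME-sEV libraries 2 or 3) and lost by DESeq2 and by limma-voom. *Pax5*, the factor that defines B cells, was near 0, with between 2 and 6 counts in HCME-sEV libraries and 1 count in each LME-sEV library. Basophil, mast-cell, and eosinophil markers (10 genes) overlapped between groups at 13.2 to 39.4 CPM and 30.5 to 51.1 CPM, although *Prg2* and *Mcpt8* among them were higher with LME-sEVs. A filter of at least 5 counts in every library removed both from the test, and the call on *Mcpt8* was lost by DESeq2 and without HCME-sEV library 4 or LME-sEV libraries 1 or 2. Myeloid markers (11 genes) summed to between 6.73 and 9.36 CPM and between 12.2 and 14.6 CPM, and none of the 2 tested was called by edgeR. CD4 T-cell markers (4 genes) summed to between 6.24 and 14.4 CPM and between 15.2 and 17.2 CPM, and the 1 tested, *Zbtb7b*, was higher, a call kept in 2 of 7 fits (lost without HCME-sEV libraries 1 or 4 or any LME-sEV library). Erythroid and platelet markers (8 genes) overlapped at 71.8 to 175 CPM and 151 to 198 CPM with 3 of 7 tested higher (*Hba-a1*, *Pf4*, and *Ppbp*, each lost by DESeq2 and kept in 1, 2, and 4 of 7 fits without a library). For all 3, leaving out HCME-sEV libraries 2 or 4 or LME-sEV library 2 ended the call, for *Hba-a1* and *Pf4* also LME-sEV libraries 1 or 3, and for *Hba-a1* also HCME-sEV library 1. The NK-cell markers (7 genes), mostly *Eomes*, were at 178 to 201 CPM and 164 to 178 CPM. The part of these cells in the *Slamf6* result was not tested.

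Among the receptors, *Cd48*, the lipid-anchored partner of CD244 and CD2, was the most abundant with HCME-sEVs. It was at 94.4, 128, 117, and 88.4 CPM in HCME-sEV libraries 1 to 4 and at 82.1, 91.4, and 85.4 CPM in LME-sEV libraries 1 to 3. HCME-sEV libraries 2 and 3 stood above all others, and HCME-sEV library 4 lay among the LME-sEV libraries. The log2 fold change of -0.30 (standard error 0.11, 95% interval -0.54 to -0.07) did not pass the correction (FDR = 0.0969, edgeR). An FDR under 0.05 was reached without HCME-sEV library 1 (0.0416) or without HCME-sEV library 4 (0.0376), and without HCME-sEV library 2 the log2 fold change was -0.21 (FDR = 0.307, edgeR).

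*Slamf7*, also called CRACC, is a receptor of cytotoxic cells that binds itself and in NK cells signals through EAT-2. Its levels were 87.9, 67.4, 76.3, and 78.7 CPM with HCME-sEVs and 73.2, 86.7, and 73.2 CPM with LME-sEVs, so the groups lay over each other. The log2 fold change was 0.0020 with a 95% interval from -0.21 to 0.21 (FDR = 0.993, edgeR), which leaves room for a change by a factor between 0.865 and 1.16.

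*Cd84*, a self-binding receptor of T, B, and myeloid cells and of platelets, was at 43.9, 47.5, 42.5, and 43.6 CPM with HCME-sEVs and at 41.6, 53.5, and 54.7 CPM with LME-sEVs. LME-sEV libraries 2 and 3 were above all HCME-sEV libraries, and LME-sEV library 1 was below them. The log2 fold change was 0.18 (standard error 0.11, 95% interval -0.05 to 0.41, FDR = 0.357, edgeR).

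*Ly9* and *Slamf1* were the least abundant receptors. *Ly9* encodes the self-binding receptor CD229, and its levels were 21.9, 27.3, 21.5, and 18.8 CPM with HCME-sEVs and 18.2, 21.5, and 20.1 CPM with LME-sEVs. HCME-sEV library 2 was the highest, and the log2 fold change of -0.16 had a 95% interval from -0.46 to 0.14 (FDR = 0.567, edgeR). *Slamf1*, the founding member of the family and a measles virus receptor in humans, was at 17.3, 17.9, 18.1, and 15.3 CPM and at 13.1, 15.5, and 14.1 CPM. LME-sEV library 2 was barely above HCME-sEV library 4, and all other LME-sEV libraries were below every HCME-sEV library. Its log2 fold change of -0.26 (standard error 0.15, 95% interval -0.57 to 0.05) did not pass the correction (FDR = 0.312, edgeR).

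**Figure D2:**
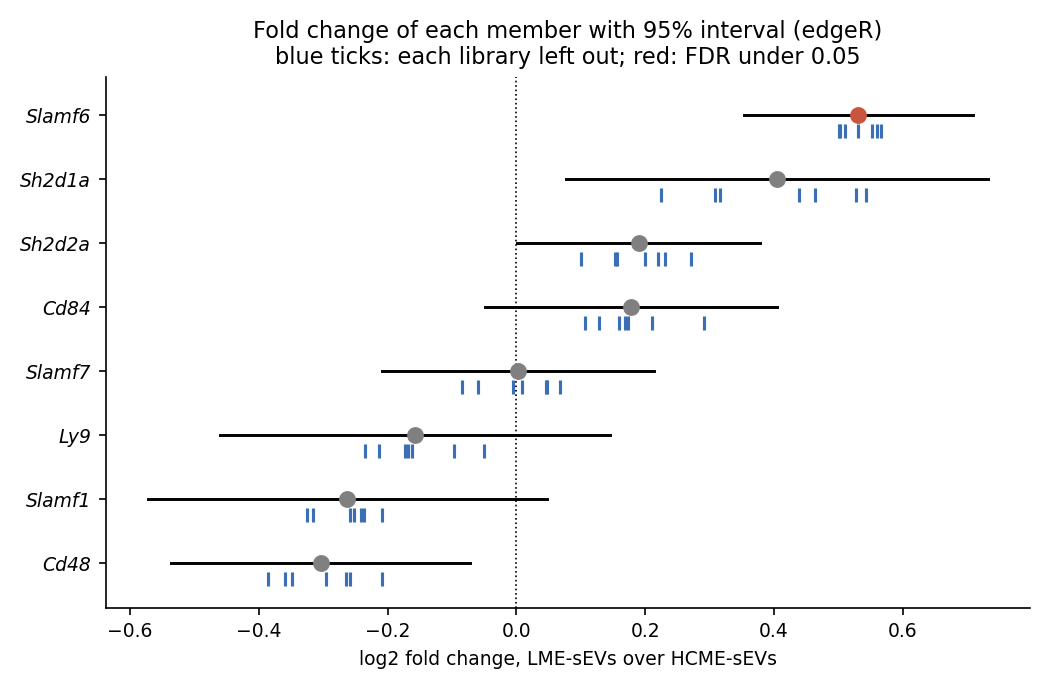
Log2 fold change of each member (dot, red where the FDR was under 0.05) with its 95% interval (line), from edgeR on 7 libraries, and the value with each library left out in turn (blue ticks). The interval of *Slamf6* runs from 0.35 to 0.71, and the ticks of *Slamf7* lie on both sides of 0, from -0.08 to 0.07.

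In the make-up of the receptor RNA, *Slamf6* took a larger share with LME-sEVs and *Cd48* a smaller one. Reads from 3′ ends do not scale with gene length, so levels of different genes can be set side by side, apart from differences in how well each 3′ end is captured. *Slamf6* held between 21.6% and 22.7% of the summed CPM of the 6 receptors in HCME-sEV libraries and between 29.9% and 31.6% in LME-sEV libraries. *Cd48* held between 27.9% and 34.6% and then between 23.9% and 24.6%. The ratio of *Slamf6* to *Cd48* RNA was between 0.636 and 0.811 with HCME-sEVs and between 1.25 and 1.29 with LME-sEVs, so their order was turned in every library. Shares add up to a whole and depend on each other, and these are given as a description.

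*Slamf7* kept overlapping shares of 22.6 ± 3.48% and 21.7 ± 1.11%, and *Cd84* of 12.9 ± 0.74% and 13.9 ± 1.41%. *Slamf1* held between 4.84% and 5.11% with HCME-sEVs and between 3.94% and 4.04% with LME-sEVs, and *Ly9* between 5.94% and 7.40% and between 5.46% and 5.61%. The shares of both were lower in all LME-sEV libraries, beside the larger share of *Slamf6*.

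**Figure D3:**
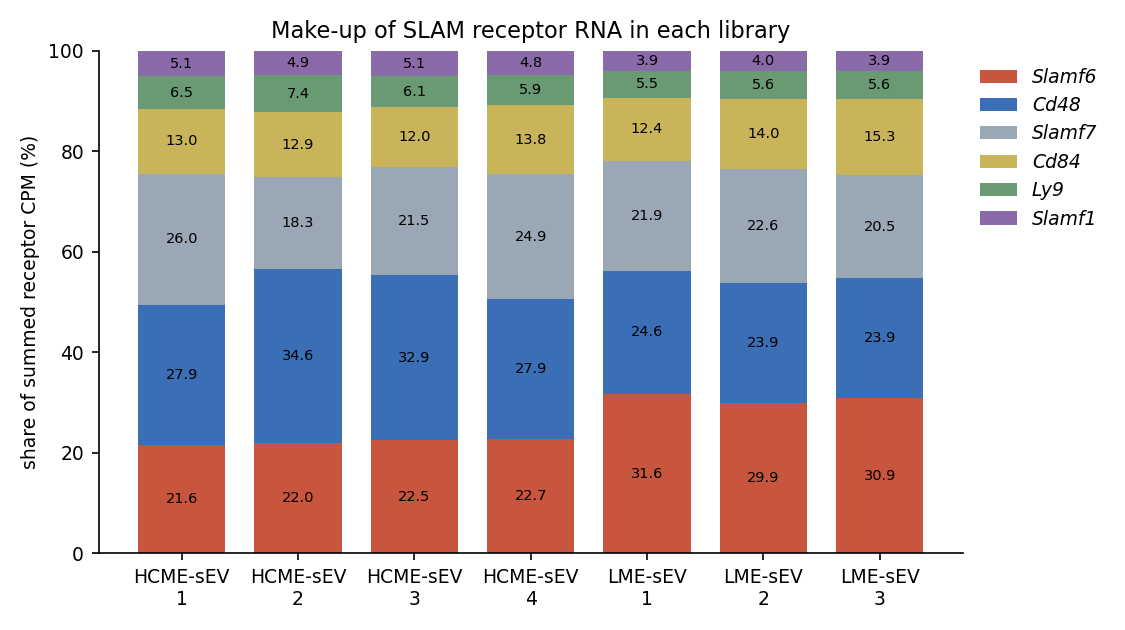
Share (%) of each of the 6 receptors in their summed CPM, for each library, stacked to 100%. *Slamf6* (red, bottom) makes up 21.6% to 22.7% of the 4 HCME-sEV bars and 29.9% to 31.6% of the 3 LME-sEV bars.

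By level, with HCME-sEVs the order was *Sh2d2a*, *Cd48*, *Slamf7*, *Slamf6*, *Cd84*, *Sh2d1a*, *Ly9*, and *Slamf1*. The libraries overlapped between the neighbors *Slamf7* and *Slamf6*, *Cd84* and *Sh2d1a*, and *Sh2d1a* and *Ly9*, the last by a narrow margin (26.7 CPM in the lowest *Sh2d1a* and 27.3 CPM in the highest *Ly9* library). With LME-sEVs *Slamf6* came second, after *Sh2d2a*, and was above *Cd48* in every library. Overlap between neighbors was then found for *Cd48* with *Slamf7* and for *Cd84* with *Sh2d1a*. *Slamf6* lay above 77.6% of all tested genes in mean CPM with HCME-sEVs and above 85.1% with LME-sEVs.

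The adaptors did not pass the correction. *Sh2d1a*, which encodes SAP, was at 26.7, 37.9, 43.3, and 27.6 CPM in HCME-sEV libraries 1 to 4 and at 36.2, 42.3, and 54.1 CPM in LME-sEV libraries 1 to 3. HCME-sEV libraries 2 and 3 lay among the LME-sEV libraries, and *Sh2d1a* had the widest relative spread of all members (23.9% of the mean with HCME-sEVs, 20.6% with LME-sEVs). Its log2 fold change was 0.40 (standard error 0.16, 95% interval 0.08 to 0.73, FDR = 0.120, edgeR). It was 0.54 without HCME-sEV library 3, where it passed (FDR = 0.0244), and 0.23 without LME-sEV library 3 (FDR = 0.534, edgeR).

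*Sh2d2a*, the TSAd adaptor, was the most abundant member. Its levels were 181, 157, 156, and 184 CPM with HCME-sEVs and 193, 216, and 172 CPM with LME-sEVs, and LME-sEV library 3 lay inside the range of the HCME-sEV libraries. The log2 fold change was 0.19 (standard error 0.091, 95% interval 0.00091 to 0.38, FDR = 0.218, edgeR).

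HCME-sEV libraries did not vary alike in all members. Libraries 2 and 3 were higher than libraries 1 and 4 in *Slamf6*, *Cd48*, *Slamf1*, and *Sh2d1a* and lower in *Slamf7* and *Sh2d2a*. For *Cd48*, *Sh2d1a*, *Slamf7*, and *Sh2d2a* this spread was at least as wide as the difference between the groups. For *Slamf6* and *Slamf1* it was narrower. No library of the group stood apart from the other 3 in any member by Dixon's ratio of gap to range at the 95% level, of which the highest value was 0.716 (*Cd84*, library 2).

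Other SLAM genes were scarce or missing in these cells. *Cd244a*, the receptor of CD48, had between 10 and 26 counts per library, at 3.55 ± 0.72 and 3.94 ± 1.49 CPM, and its log2 fold change was 0.16 (95% interval -0.53 to 0.86, not past the FDR). *Slamf8*, a receptor of myeloid cells, had between 2 and 9 counts. *Sh2d1b1*, which encodes EAT-2, had at most 1 count, and *Slamf9* and *Sh2d1b2* had 0 in all 7 libraries, where a count of 0 allows up to between 0.580 and 0.804 CPM (3 counts, covering counting error only). RNA of SAP was thus measured in every library, whereas that of its relative EAT-2 was at or near 0.

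The neighborhood of the SLAM genes was examined for changes along the chromosome. Between *Cd244a* and *Slamf8* (171559193 to 172590568 on chromosome 1, 1031 kb) 49 genes are annotated, of which 21 were tested: 8 SLAM genes and 13 others. None of the 13 others passed the test (0 higher and 0 lower by edgeR, where 8.96% of all genes passed, and 2 with an unadjusted p under 0.05, *Gm37010* and *Gm37125*), and their median log2 fold change was 0.09, against 0.01 over all tested genes. *Vangl2*, a planar polarity gene, is the nearest tested gene to the right of *Slamf6* and had a log2 fold change of -0.15 (FDR = 0.854, edgeR), and *Ncstn*, which encodes the γ-secretase subunit nicastrin, had 0.20 (FDR = 0.541, edgeR). *Gm37065*, an antisense gene on the minus strand (171909957 to 171919356), runs past the start of *Slamf6*, without overlap of exons, and had -0.38 (FDR = 0.628, edgeR) at 2.96 ± 1.24 CPM with HCME-sEVs.

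The remaining tested neighbors were *A630035G10Rik*, *Gm37010*, *Copa*, *Pex19*, *Dcaf8*, *Pea15a*, *Igsf8*, *Pigm*, *Tagln2*, and *Gm37125*. The largest of their log2 fold changes was 0.64, for *Gm37125* (FDR = 0.113, edgeR), a gene at 4.55 ± 0.55 CPM with HCME-sEVs whose groups did not overlap.

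**Figure D4:**
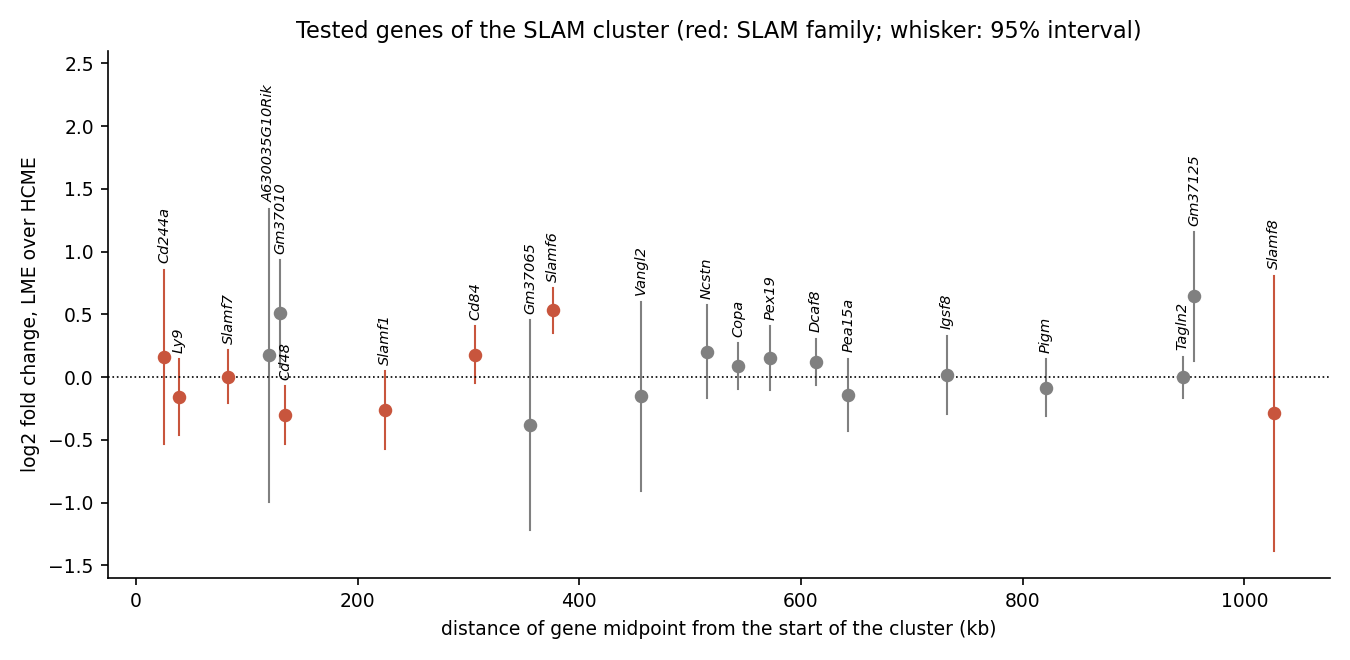
Log2 fold change with 95% interval (y axis) of the 21 tested genes between *Cd244a* and *Slamf8*, by the distance of their midpoint from the start of *Cd244a* in kb (x axis), with SLAM genes in red. The interval of *Slamf6* (0.35 to 0.71) lies above 0, and the other intervals that leave out 0 belong to *Cd48*, *Gm37010*, and *Gm37125*, which did not pass the correction.

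Ligands and signaling partners of the SLAM receptors were taken as a list of 41 genes, of which 40 had enough counts. Of the 40, 3 were higher, 1 was lower, and 36 did not pass, and the median log2 fold change was -0.06. The share called over all tested genes was 8.96%. *Fyn*, the kinase that SAP recruits, was at 161 ± 13.8 and 154 ± 0.65 CPM, with a log2 fold change of -0.06 (95% interval -0.24 to 0.11). *Lck*, the main T-cell Src kinase, had -0.03 (95% interval -0.17 to 0.12), *Prkcq*, the protein kinase C of T cells, -0.13 (-0.39 to 0.13), and *Cd2*, the other CD48 receptor, 0.10 (-0.07 to 0.26).

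*Sh3bp2* was the partner that fell. It encodes 3BP2, an adaptor that binds the tail of CD244. Its levels were 26.2, 24.8, 24.2, and 21.8 CPM with HCME-sEVs and 14.2, 18.1, and 14.1 CPM with LME-sEVs, so the groups were apart. The log2 fold change was -0.64 (standard error 0.14, FDR = 0.00779, edgeR), and the call was lost without LME-sEV library 3 (FDR = 0.0622).

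*Pik3r4*, *Itgb2*, and *Plcg1* rose. *Pik3r4* encodes the regulatory subunit of the VPS34 lipid kinase, which SLAMF1 binds together with beclin 1 in phagocytes. It had 25.3 ± 0.79 and 34.4 ± 3.72 CPM, a log2 fold change of 0.44 (FDR = 0.0247, edgeR). *Itgb2*, the β2 integrin chain, had 0.29 (FDR = 0.0368), and *Plcg1*, phospholipase C γ1, had 0.30 (FDR = 0.0408, edgeR). These calls were less stable than that of *Sh3bp2*: of the 7 fits that left out a library, 3 kept the call on *Pik3r4* (lost without HCME-sEV libraries 2 or 4 or LME-sEV libraries 1 or 2). The call on *Itgb2* was kept in 2 (lost without HCME-sEV libraries 1, 2, or 4 or LME-sEV libraries 2 or 3), and that on *Plcg1* in 2 (lost without HCME-sEV libraries 1 or 2 or any LME-sEV library). DESeq2 called neither *Pik3r4* nor *Plcg1*.

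The next partners by FDR did not pass. *Ptpn6*, which encodes the phosphatase SHP-1, was at 172 ± 3.61 and 148 ± 5.55 CPM, and although the groups did not overlap its FDR was 0.0698 (log2 fold change -0.22, edgeR). *Dok2*, an inhibitory adaptor, had -0.25 (FDR = 0.132), *Arhgef6*, an exchange factor for RAC, had 0.24 (FDR = 0.161), and *Pak1*, a kinase downstream of RAC, had 0.90 at under 4 CPM (FDR = 0.163, edgeR).

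**Figure D5:**
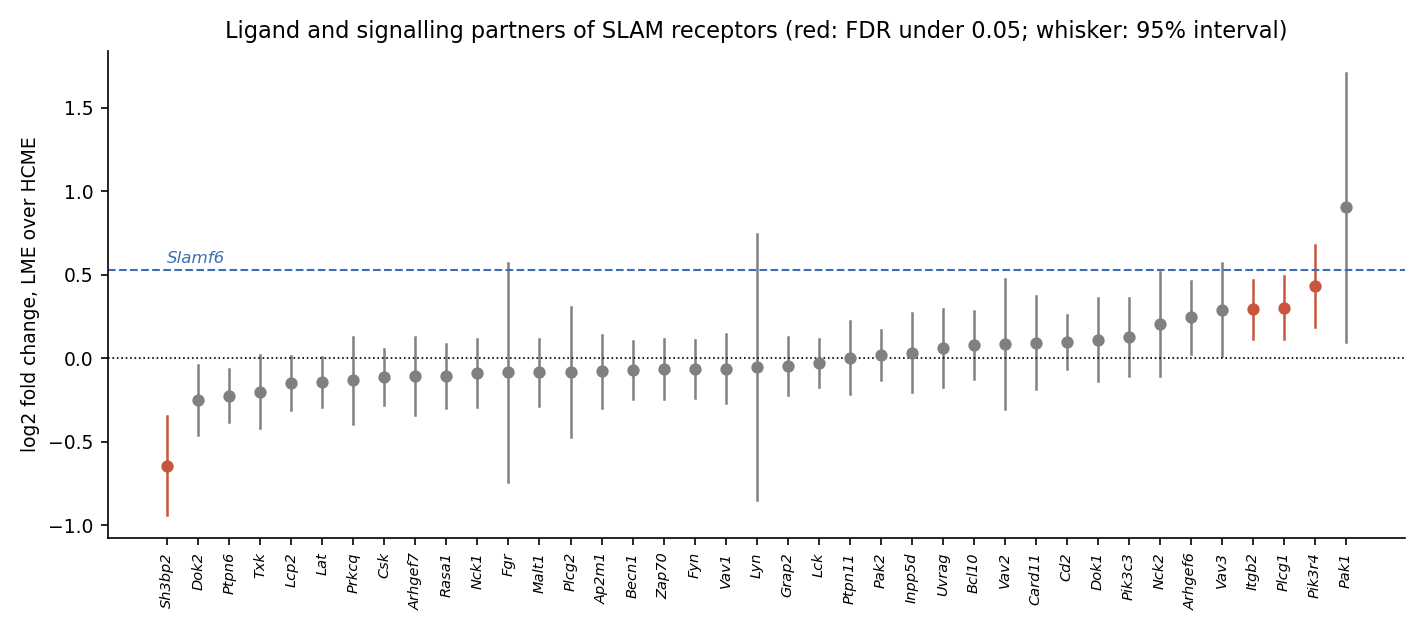
Log2 fold change with 95% interval of 39 of the 40 tested ligand and signaling partners, in order of their value (x axis), with genes of an FDR under 0.05 in red and the log2 fold change of *Slamf6* (0.53) as a dashed line. The red genes are *Sh3bp2* at the left end and *Itgb2*, *Plcg1*, and *Pik3r4* near the right end.

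Genes on which SAP signaling is known to act, chiefly in follicular helper T cells and NKT cells, formed a list of 11. Of 7 tested, 2 were higher (*Bcl6* and *Cxcr5*), 1 was lower (*Ifng*), and 4 did not pass, where 3.75% of all tested genes were higher and 5.21% lower. The median log2 fold change was 0.08. *Bcl6*, the repressor that defines follicular helper cells, had a log2 fold change of 1.22 (FDR = 6.62e-04, edgeR) and was called in 7 of 7 fits that left out a library. *Cxcr5*, the follicle-homing receptor, was at 9.61 ± 1.23 CPM with LME-sEVs, and its log2 fold change of 0.84 (FDR = 0.0249, edgeR) was called in 3 of these 7 (lost without HCME-sEV libraries 1 or 4 or LME-sEV libraries 2 or 3) and not by DESeq2. *Ifng*, the interferon of effector cells, had -0.39 (FDR = 0.0288, edgeR), called in 3 of 7 (lost without HCME-sEV libraries 2 or 3 or LME-sEV libraries 1 or 2) and not when scaled to library size only. *Icos*, a costimulatory receptor, had 0.22 (FDR = 0.0825, edgeR).

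SLAMF6 is used as a surface marker of stem-like CD8+ T cells, so the RNA of other genes of these cells was set beside it. Of 10 tested, 4 were higher (3.75% of all tested genes), 1 was lower (5.21% of all), and 5 did not pass, and the median log2 fold change was 0.36 against 0.01 over all tested genes. *Tcf7*, which encodes TCF1, was at 131, 157, 196, and 165 CPM with HCME-sEVs and at 207, 235, and 246 CPM with LME-sEVs, and its log2 fold change was 0.50 (standard error 0.10, FDR = 0.00493, edgeR). *Il7r*, the IL7 receptor of resting and memory cells, had 0.52 (FDR = 0.00125, edgeR), and both were called in 7 of 7 fits without a library. *S1pr1*, which guides cells out of lymphoid organs, had 0.63 (FDR = 0.0124, edgeR; lost without LME-sEV libraries 2 or 3). The list is thus not of 1 direction, and *Cxcr5* stands both in it and among the genes on which SAP signaling acts.

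Genes whose pattern over the 7 libraries was most like that of *Slamf6* were *Rfx5*, *Itpr1*, and *Emb*, at a Euclidean distance of 0.168, 0.169, and 0.173 between centered log2 CPM, where the median over the 9694 genes averaging 20 counts or more was 0.834. Their log2 fold changes were 0.48, 0.59, and 0.48.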

How the data were processed

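CD8+ T cells were profiled by QuantSeq 3′ RNA-seq with UMIs in 4 HCME-sEV and 3 LME-sEV libraries. The authors trimmed the reads with cutadapt 2.10, mapped them to GRCm38 with STAR 2.5.3a, collapsed them with UMI-tools 1.0.0, and counted them with featureCounts (Subread 2.0.0). The deposited values are whole counts per gene without normalization or filter. The annotation release and the strand setting are not given in the sources used here.

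Genes averaging 5 or more counts in the 7 libraries were tested with edgeR 4.0.16 (TMM, glmQLFit and glmQLFTest, R 4.3.3), LME-sEVs against HCME-sEVs, without covariates. P-values were adjusted over all tested genes. Standard errors were derived from the F statistic, and log2 CPM used a prior count of 2. Replicates of a group differed by a chi-square per degree of freedom of at least 2.10 and were each counted as a sample. Coordinates are from GENCODE vM21. Near-identical 3′ ends were searched with blastn 2.17.0 in the last 300 bases of transcripts (95% identity over 200 bases). Figures used matplotlib 3.10.9. Members and gene lists were chosen with earlier results of these data known. Named genes are the 8 members, the other SLAM genes, the tested genes of the chromosome 1 cluster, the 8 partners with the smallest FDR with *Cd2*, *Fyn*, *Lck*, and *Prkcq*, up to 4 genes with the smallest FDR of each other list, and the 3 genes nearest to *Slamf6*. Cell-type markers are named for their levels, and *Gzmb* and *Prf1* for the question of the group labels. Some genes that these rules or lists hold are not reported here by name. Alternatives covered the filter, the normalization, DESeq2 1.42.0, limma-voom (limma 3.58.1), the likelihood ratio test, the replicate number, and leaving out each library.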

Additional observations from a re-analysis of the deposited data

How the results depend on the processing

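*Slamf6* kept its direction and an FDR under 0.05 in all 10 other settings (log2 fold change 0.50 to 0.58) and in all 7 fits without a library (0.50 to 0.57). The number of members with an FDR under 0.05 was 1, and 2 without a filter on counts, where *Sh2d1a* was the 2nd (FDR = 0.0201, edgeR, so 2 higher). With the replicate number as a block it was also 2, where *Cd48* was the 2nd (log2 fold change -0.38, FDR = 0.00364, so 1 lower). The call on the B-cell marker *Cd74* was lost with the block. The block leaves HCME-sEV library 4 without a partner. Over all genes the block gave 1454 calls against 1131. Same-numbered libraries correlated in their deviations from the group means at 0.072, 0.155, and 0.027, and 1 of 3 LME-sEV libraries correlated best with its own number, so the numbers were not taken as pairs. DESeq2 called 2 signaling partners against 4. With each library left out, the members called ranged from 1 to 2, those higher from 1 to 2, those lower from 0 to 1, and the partners from 1 to 4 (1 without HCME-sEV library 2 or LME-sEV libraries 2 or 3, and 2 without HCME-sEV libraries 1 or 4 or LME-sEV library 1). All genes called ranged from 391 (without LME-sEV library 2) to 1305, with 458 without LME-sEV library 3 and 723 without HCME-sEV library 2. *Slamf7*, at 0.0020, had values from -0.084 to 0.067 in these fits and changed sign. No member passed the cutoff of 1 in any setting, and the cause of the other moves was not tested. The ratio of the summed receptors between groups was 1.04 and at most 1.08. The depth limits *Slamf8*, *Sh2d1b1*, and *Cd244a*, at 26 counts or fewer per library.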

Other observations

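Genes of effector CD8+ T cells, the counterpart of the stem-like list, were not of 1 direction either. Of 9 tested, 4 were lower with LME-sEVs, 1 was higher, and 4 did not pass, where 5.21% of all tested genes were lower and 3.75% higher. The median log2 fold change was 0.09. *Tbx21*, which encodes the effector regulator T-bet, was at 101 ± 9.75 (SD, n = 4) and 76.0 ± 5.18 CPM (SD, n = 3) and fell, with a log2 fold change of -0.41 (FDR = 0.0101, edgeR; lost without LME-sEV library 2). *Id2*, a regulator of effector cells, had -0.35 (FDR = 0.0192, edgeR; lost without LME-sEV libraries 2 or 3). *Prdm1*, which encodes BLIMP-1, rose with a log2 fold change of 0.92 (FDR = 0.0034, edgeR) and was called in 7 of 7 fits without a library. *Ifng* is in this list too.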
